A study of Homo sapiens with 6 samples.

Results

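The genes described here encode 9 enzymes that make serine and move its carbon through folate: PHGDH, PSAT1 and PSPH of serine synthesis, SHMT1 and MTHFD1 of the cytosolic folate branch, and SHMT2, MTHFD2, MTHFD1L and ALDH1L2 of the mitochondrial branch. They were taken by symbol from a table of 63186 Ensembl genes, and each symbol matched 1 row. Of the 9, 7 passed the filter on low counts and were tested, while MTHFD2 and ALDH1L2 had too few counts. The libraries come from RBE cells, an established human line from intrahepatic cholangiocarcinoma, which arises from bile ducts within the liver. At about 60% confluency the cells received siRNA against CHAF1A (si-CHAF1A, 3 libraries) or a control siRNA (si-Ctrl, 3 libraries), their medium was changed at 24 h, and they were harvested at 48 h. Both groups were transfected with the same lipid reagent, and untransfected cells are not analysed here. The CHAF1A protein belongs to chromatin assembly factor 1, a complex that lays histones on newly made DNA.

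In serine synthesis, PHGDH oxidises the glycolytic intermediate 3-phosphoglycerate, PSAT1 transfers an amino group from glutamate to the product, and PSPH removes the phosphate to release serine. The serine hydroxymethyltransferases, SHMT1 in the cytosol and SHMT2 in mitochondria, then split serine into glycine and a one-carbon unit bound to tetrahydrofolate. In mitochondria MTHFD2 oxidises that unit and MTHFD1L frees it as formate, or ALDH1L2 oxidises it to carbon dioxide with the formation of NADPH. In the cytosol MTHFD1, an enzyme with several activities in a single chain, takes formate back into folate for the synthesis of purines and thymidylate and for the methionine cycle. Proliferating cancer cells are known to draw on this route, and many of its genes are known targets of the stress transcription factor ATF4.

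The 6 libraries held 15643381 to 20918997 counts. Levels are given as CPM, counts relative to library size with TMM factors. A log2 fold change is si-CHAF1A over si-Ctrl from edgeR's quasi-likelihood test over 15911 genes, and a gene is called higher or lower at a Benjamini-Hochberg adjusted p under 0.05. The targeted transcript, CHAF1A, had 11.1, 12.9 and 11.2 CPM after si-CHAF1A, against 51.5, 59.8 and 51.0 CPM in the si-Ctrl libraries. Markers of biliary epithelium, 7 genes that include the keratins KRT7 and KRT19, were all tested and summed to 5320 to 5840 CPM in si-CHAF1A libraries and 4111 to 4779 CPM in si-Ctrl libraries. Summed markers of fibroblasts lay at 17.7 to 38.2 CPM in si-CHAF1A and 10.1 to 12.6 CPM in si-Ctrl libraries (7 genes, 3 tested), and those of endothelium at 7.01 to 8.92 CPM in si-CHAF1A and 2.41 to 4.22 CPM in si-Ctrl libraries (5 genes, 2 tested). Hepatocyte markers stayed under 3 CPM in sum and leukocyte markers at or under 1.32 CPM in all libraries, and no marker was at 0 throughout. The part of these marker differences in the results was not tested. The control library si-Ctrl 2 stood apart from the other controls, with a chi-square per degree of freedom of 13.5 and 13.7 against them, while the other control pair gave 2.30.

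Of the 7 tested enzymes 2 were lower in si-CHAF1A cells, PSAT1 and MTHFD1, and 0 were higher. Those 2 are the members with an unadjusted p under 0.05, and limma-trend and DESeq2 also called 0 members higher. Across all tested genes 19.3% were lower and 18.5% were higher, so the number of members called is not in itself particular to these enzymes. Values for the other 5 tested members gave intervals that include 0. All 3 si-CHAF1A libraries lay below all 3 si-Ctrl libraries for PSAT1, MTHFD1 and PHGDH, a pattern found at 24.1% of all tested genes. The counts come from whole cultures, so fewer cells with a transcript and less of it per cell cannot be told apart.

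**Figure D1:**
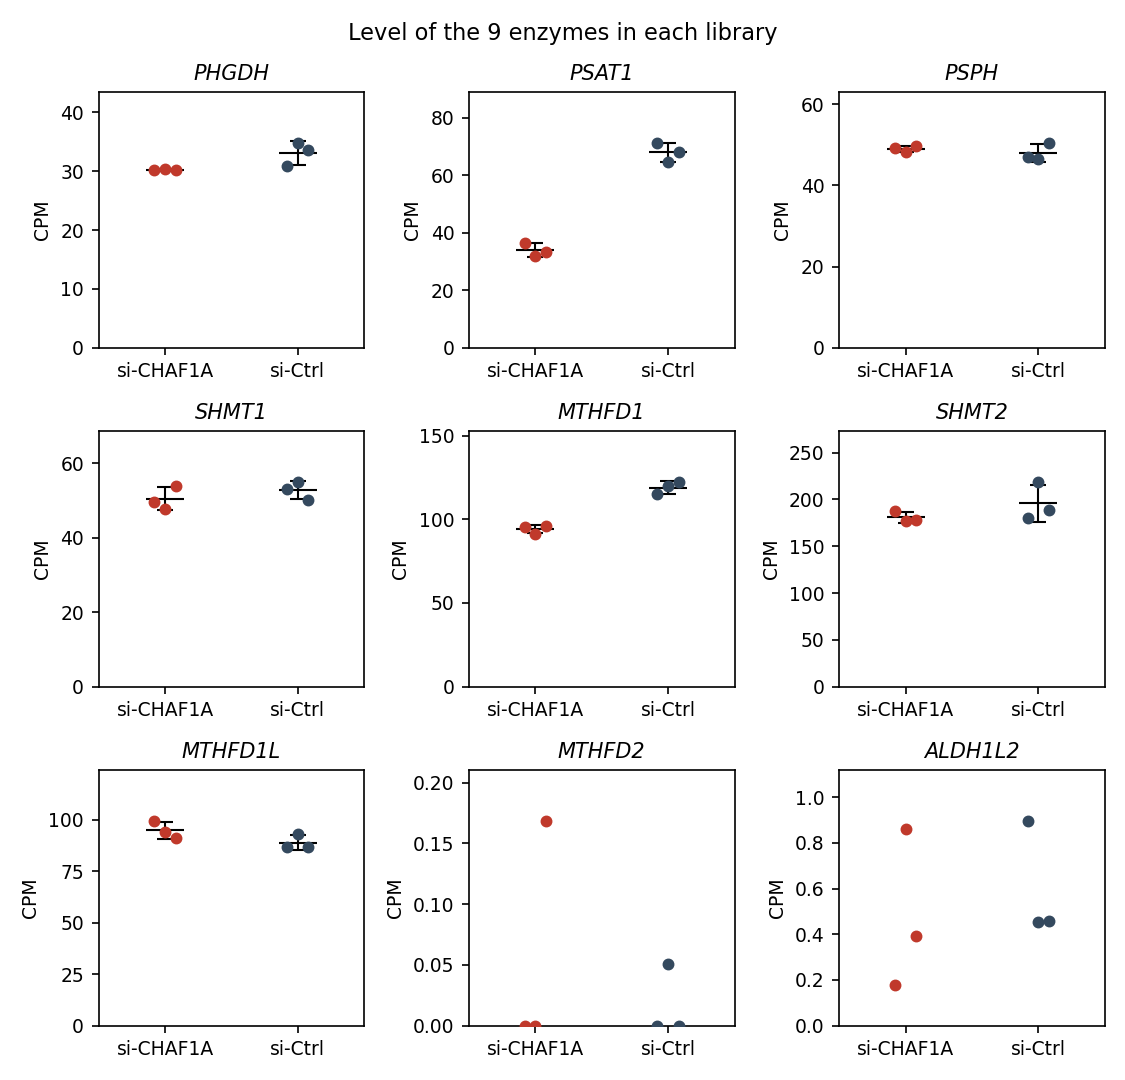
Level in CPM (vertical axis, from 0) of each of the 9 enzymes in the 3 si-CHAF1A and 3 si-Ctrl libraries, with 1 point per library and, for tested genes, a bar at the mean with the SD. PSAT1 lies at 31.9 to 36.6 CPM in si-CHAF1A against 64.5 to 71.1 CPM in si-Ctrl, MTHFD1 also separates, and MTHFD2 and ALDH1L2 stay under 1 CPM.

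PSAT1 (ENSG00000135069, GRCh38 chromosome 9, 78297143 to 78330093), the aminotransferase of serine synthesis, had 36.6, 31.9 and 33.3 CPM in si-CHAF1A cells, against 71.1, 64.5 and 68.2 CPM in si-Ctrl cells. The highest knockdown library was well under the lowest control library. PSAT1 was 2.00-fold lower, at 33.9 ± 2.38 CPM in si-CHAF1A and 67.9 ± 3.33 CPM in si-Ctrl cells (SD, n = 3 each, log2 fold change -1.001 with an SE of 0.08 and an edgeR adjusted p = 1.19e-07). Only 231 of the 15911 tested genes, 1.45%, were called lower with a fitted fall at least as large. The deposited table also lists 4 pseudogenes of PSAT1, all with no count in any library, and no exon of another GENCODE 29 gene overlaps its exons.

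The 250 bases before the PSAT1 start are printed because this is the member that changed most. RefSeq's table (GRCh38.p14) held windows for 6 of the 9 members. The search covered the 250 bases before each start on both strands for the CCAAT box (letters CCAAT), the E-box bound by MYC (CACGTG, which reads the same on both strands) and the composite C/EBP-ATF element that ATF4 can bind (TGATGNAA). No letters of these motifs overlapped in the sequences shown. Capitals mark the matches in the PSAT1 window, chr9:78296875-78297124 on the plus strand:
PSAT1: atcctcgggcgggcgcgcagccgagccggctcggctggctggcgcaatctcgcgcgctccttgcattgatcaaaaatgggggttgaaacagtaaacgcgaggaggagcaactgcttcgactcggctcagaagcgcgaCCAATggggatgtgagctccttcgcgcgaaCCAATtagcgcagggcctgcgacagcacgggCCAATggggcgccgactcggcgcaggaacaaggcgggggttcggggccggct
It holds 3 CCAAT boxes, starting 113, 83 and 52 bases before the start, and neither of the other motifs. A CCAAT box is in 32% of the 35116 windows in the table, an E-box in 6.34% and the C/EBP-ATF element in 3.14%.

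Stretches of 30 bases from 3 other members set the matches side by side with PSAT1: MTHFD1, which was also lower, PHGDH, which acts one step before PSAT1, and MTHFD1L, which had a C/EBP-ATF element. All lie on the plus strand, and capitals mark an E-box in MTHFD1 (chr14:64388323-64388352), a CCAAT box in PHGDH (chr1:119711851-119711880) and the C/EBP-ATF element in MTHFD1L (chr6:150866346-150866375).
MTHFD1: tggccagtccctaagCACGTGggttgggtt
PHGDH: gagtatttccgtCCAATcaaaaggagactg
MTHFD1L: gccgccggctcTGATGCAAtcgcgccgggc
Each of these 3 stretches lies inside the span of its gene. The spans begin at 64388031 (MTHFD1), 119648411 (PHGDH) and 150865549 (MTHFD1L), so the stretches precede a listed start but not the whole gene. The E-box of MTHFD1 starts 15 bases before the listed start, and that window also holds a CCAAT box 216 bases before it. The CCAAT box of PHGDH starts 71 bases before the start. In MTHFD1L the C/EBP-ATF element stands 129 bases before the first listed of its 4 starts, with an E-box 154 bases before it. Both motifs are in 2 of those 4 windows, and a CCAAT box is in 3 of them. The windows with matches overlap, so each motif is the same site seen from more than 1 start. Each of the 6 members with a window holds a CCAAT box, MTHFD2 and SHMT1 with 2 each. These are matches of letters, and binding was not measured.

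PHGDH (chromosome 1, 119648411 to 119744226), the first enzyme of the route, had 30.1, 30.4 and 30.2 CPM in si-CHAF1A cells, against 30.9, 34.8 and 33.7 CPM in si-Ctrl cells. The groups did not overlap, but the lowest control was within 1 CPM of the knockdown libraries. PHGDH did not pass the test, at 30.3 ± 0.162 CPM in si-CHAF1A and 33.1 ± 1.99 CPM in si-Ctrl cells (SD, n = 3 each, log2 fold change -0.13, 95% interval -0.31 to 0.04, edgeR adjusted p = 0.232). That interval leaves out a fall of the size fitted for PSAT1.

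PSPH (chromosome 7, 56011051 to 56051604), the phosphatase of the last step, had 49.2, 48.2 and 49.6 CPM in si-CHAF1A cells, against 47.0, 46.5 and 50.4 CPM in si-Ctrl cells. The groups overlapped, and the log2 fold change was 0.03 (95% interval -0.12 to 0.19, edgeR adjusted p = 0.768). PSPHP1, a pseudogene of PSPH on the same chromosome, carried 175, 192 and 203 counts in si-CHAF1A and 179, 162 and 210 counts in si-Ctrl libraries. It did not pass either (log2 fold change 0.06, edgeR adjusted p = 0.786), and how reads were divided between the copies is not given in the sources used here.

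In the cytosolic folate branch, MTHFD1 (ENSG00000100714, chromosome 14, 64388031 to 64463457) had 95.1, 91.4 and 95.9 CPM in si-CHAF1A cells, against 115.01, 119.6 and 122 CPM in si-Ctrl cells. Every knockdown library was under every control library. MTHFD1 was 1.26-fold lower, at 94.1 ± 2.38 CPM in si-CHAF1A and 119 ± 3.64 CPM in si-Ctrl cells (SD, n = 3 each, log2 fold change -0.34 with an SE of 0.06 and an edgeR adjusted p = 0.00066). Exons of 3 GENCODE 29 genes on the opposite strand cover 11% of its merged exons, and reads in those bases are uncertain because the libraries were made strand-specific, per the design text, but the strand setting of the counting is not given. Its pseudogene MTHFD1P1 carried 2, 2 and 1 counts in si-CHAF1A and 5, 4 and 3 counts in si-Ctrl libraries. SHMT1 (chromosome 17, 18327860 to 18363563), the cytosolic serine hydroxymethyltransferase, had 49.6, 47.8 and 54.0 CPM in si-CHAF1A cells, against 53.0, 54.9 and 50.1 CPM in si-Ctrl cells. The groups overlapped and SHMT1 did not pass (log2 fold change -0.06, 95% interval -0.22 to 0.10, edgeR adjusted p = 0.562). The pseudogene SHMT1P1 had at most 3 counts in any library.

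In the mitochondrial branch, SHMT2 (chromosome 12, 57229327 to 57234935) had 187, 177 and 178 CPM in si-CHAF1A cells, against 181, 219 and 188 CPM in si-Ctrl cells. The control si-Ctrl 2 was the highest of all 6, and the other controls lay among or just above the knockdown libraries. SHMT2 did not pass (log2 fold change -0.11, 95% interval -0.27 to 0.04, edgeR adjusted p = 0.245), and without si-Ctrl 2 the log2 fold change was -0.03 (edgeR adjusted p = 0.575). MTHFD1L (chromosome 6, 150865549 to 151101887), the mitochondrial formate-releasing enzyme, had 99.3, 93.8 and 91.1 CPM in si-CHAF1A cells, against 86.5, 92.9 and 86.8 CPM in si-Ctrl cells. The groups overlapped by 1 control library, and MTHFD1L did not pass (log2 fold change 0.09, 95% interval -0.05 to 0.24, edgeR adjusted p = 0.303).

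**Figure D2:**
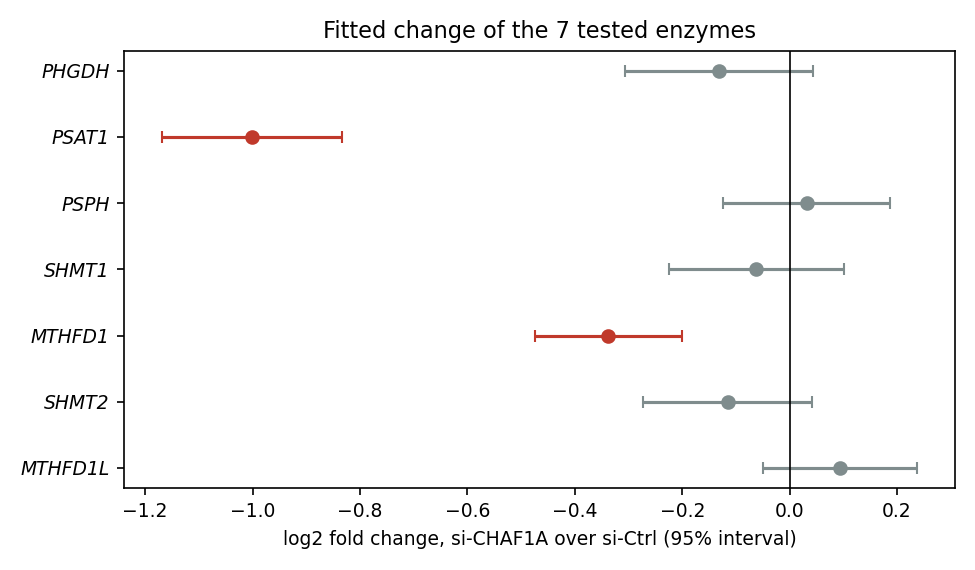
Fitted log2 fold change of si-CHAF1A over si-Ctrl (horizontal axis) of the 7 tested enzymes, with the 95% interval. PSAT1 at -1.001 and MTHFD1 at -0.34, in red, passed the test, and the 5 grey genes have intervals that include 0.

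MTHFD2 (ENSG00000065911, chromosome 2, 74198562 to 74217565), the mitochondrial dehydrogenase of this branch, was listed with 0, 0 and 3 counts in si-CHAF1A libraries and 0, 1 and 0 counts in si-Ctrl libraries, so 4 of the 6 libraries were at 0. A count of 0 allows up to 3 counts, which is 0.172 to 0.192 CPM at the depths of those 4 libraries, and this covers counting error only. MOB1A, a gene on the same chromosome, had 3760 to 4177 counts in si-CHAF1A and 3492 to 3669 counts in si-Ctrl libraries. Exons of 2 GENCODE 29 genes on the opposite strand, SLC4A5 among them, cover 33.2% of the merged exons of MTHFD2, and its 7 listed pseudogenes had no count in any library. Other genes known to be widely expressed were listed near 0 too: EHMT2, a histone methyltransferase, had 0 counts in si-CHAF1A and 0 to 2 counts in si-Ctrl libraries, and MRPL53, a mitochondrial ribosomal protein gene, had 0 in all 6. These rows were chosen after their values were seen. A further 5013 rows of the table are not in GENCODE 29, and their overlap with MTHFD2 was not tested. The row therefore gives a count for MTHFD2 but no measure of whether the transcript is present, and no fold is given.

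ALDH1L2 (chromosome 12, 105019784 to 105084577), the mitochondrial folate oxidase, had 3, 15 and 7 counts in si-CHAF1A libraries and 14, 9 and 8 counts in si-Ctrl libraries, in sum 25 and 31. The groups overlapped, and the gene did not pass the filter, so it was not tested in the main fit. MTHFD2L, the paralogue of MTHFD2 with a similar activity, had 5.53, 5.74 and 5.10 CPM in si-CHAF1A cells, against 6.97, 3.74 and 8.77 CPM in si-Ctrl cells. Its groups overlapped, and its log2 fold change of -0.24 did not pass (edgeR adjusted p = 0.449). It was chosen for description after its values were seen.

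Levels of different genes can be compared only per length. Per kb of merged GENCODE 29 exons, SHMT2 stood first, at 37.4 ± 1.15 CPM per kb in si-CHAF1A and 40.5 ± 4.15 CPM per kb in si-Ctrl cells (SD, n = 3 each). PSAT1 ranked 4 in si-CHAF1A cells at 15.5 ± 1.09 CPM per kb and 2 in si-Ctrl cells at 31.0 ± 1.52 CPM per kb. In si-CHAF1A cells it lay below MTHFD1L (18.9 ± 0.829) and PSPH (17.8 ± 0.261), and in si-Ctrl cells above both (17.7 ± 0.721 and 17.4 ± 0.77 CPM per kb). MTHFD1L and PSPH, neighbours in the si-Ctrl order, did not differ beyond their SDs there. MTHFD1 followed at 10.04 ± 0.253 CPM per kb in si-CHAF1A and 12.7 ± 0.389 CPM per kb in si-Ctrl cells, SHMT1 at 6.93 ± 0.432 and 7.24 ± 0.333 CPM per kb, and PHGDH at 3.28 ± 0.0175 and 3.59 ± 0.216 CPM per kb. Per kb of the longest APPRIS principal transcript instead, a length chosen after the data were seen, SHMT2 stayed first and PHGDH stayed last of the 7, MTHFD1 moved to rank 2 in both groups, and PSAT1 ranked 6 in si-CHAF1A and 3 in si-Ctrl cells. ALDH1L2 and MTHFD2 were the lowest by either length.

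**Figure D3:**
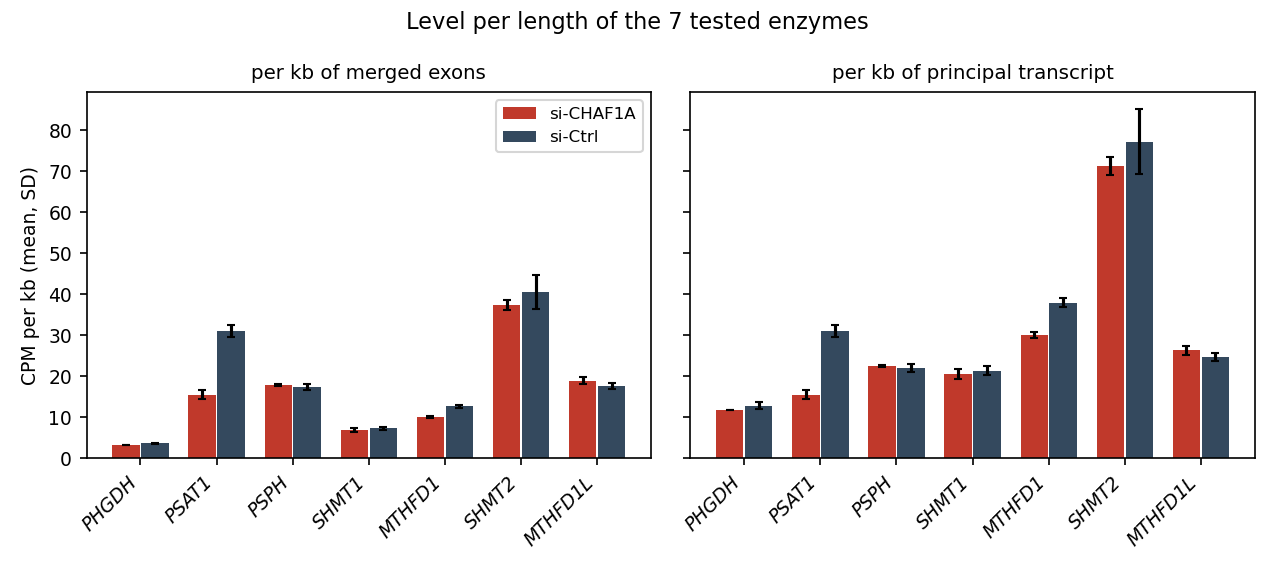
Mean CPM per kb (vertical axis, from 0) of the 7 tested enzymes in si-CHAF1A and si-Ctrl cells, with the SD over 3 libraries, per kb of merged exons on the left and of the principal transcript on the right. SHMT2 stands first in both panels, and the pair of bars that differs most is PSAT1, at 15.5 and 31.0 CPM per kb.

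A ratio of enzymes within a library needs no scaling between libraries and shows whether they changed unequally. With 3 libraries against 3, the exact two-sided permutation test cannot give a p under 0.1, and 5 ratios were computed. The adjusted p covers all 5. The ratios within serine synthesis were added after their values were seen, each at that smallest p. They can lower the adjusted p of the ratios planned before, so it is not a correction for those alone. The log2 ratio of MTHFD1L over MTHFD1, mitochondrial over cytosolic, was 0.06, 0.04 and -0.07 in si-CHAF1A libraries, against -0.41, -0.36 and -0.49 in si-Ctrl libraries. The groups did not overlap, and the ratio was higher by 0.43 on the log2 scale (exact permutation p = 0.1, adjusted p = 0.125). The ratio of SHMT2 over SHMT1 was 1.92, 1.89 and 1.72 in si-CHAF1A libraries, against 1.77, 1.99 and 1.91 in si-Ctrl libraries, with overlapping groups (difference -0.05, exact permutation p = 0.6, adjusted p = 0.6). The direction of that difference turned without si-CHAF1A 3 (0.013) and without si-Ctrl 2 (0.0041). The ratio of MTHFD2 over MTHFD1 could not be computed because MTHFD2 was at 0 in 4 libraries.

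Within serine synthesis the ratios were chosen after the values were seen and describe the same counts as the tests above. Their p-values therefore add no support to those tests. The log2 ratio of PSAT1 over PHGDH was 0.28, 0.07 and 0.14 in si-CHAF1A libraries, against 1.20, 0.89 and 1.02 in si-Ctrl libraries (difference -0.87, exact permutation p = 0.1, adjusted p = 0.125). That of PSAT1 over PSPH was -0.43, -0.60 and -0.58 in si-CHAF1A libraries, against 0.60, 0.47 and 0.44 in si-Ctrl libraries (difference -1.03, exact permutation p = 0.1, adjusted p = 0.125). In these CPM ratios PSAT1 exceeded PSPH in each control library and was below it in each knockdown library. For PHGDH over PSPH the difference was -0.16, with each si-CHAF1A library below each si-Ctrl library (exact permutation p = 0.1, adjusted p = 0.125).

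**Figure D4:**
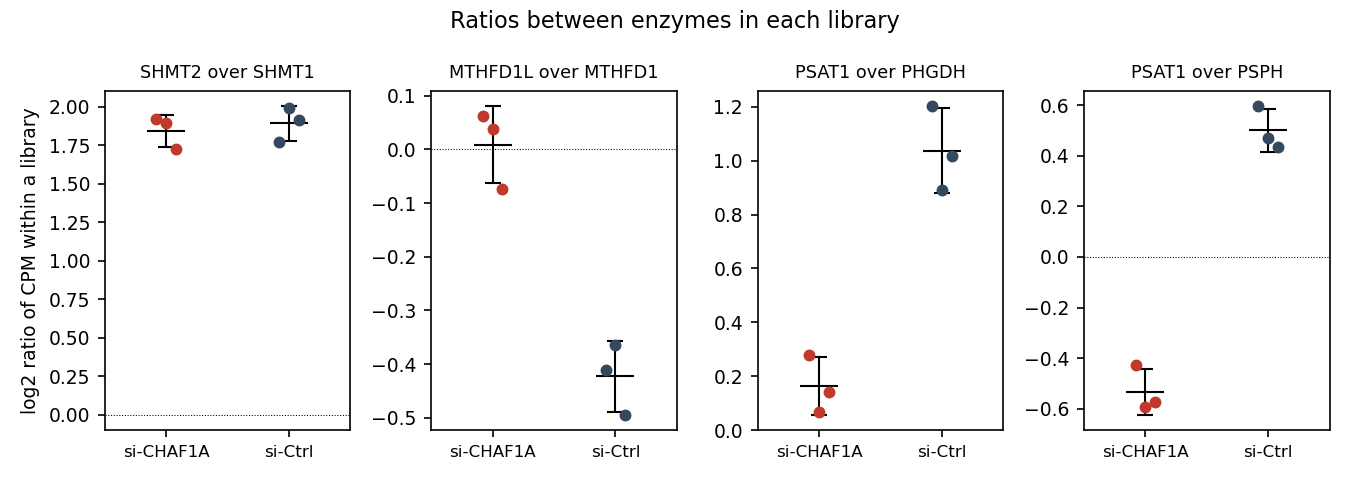
Log2 ratio of CPM within a library (vertical axis, a separate scale per panel) for 4 pairs of enzymes, with 1 point per library and a bar at the mean with the SD. MTHFD1L over MTHFD1 is higher in all 3 si-CHAF1A libraries, PSAT1 over PHGDH and over PSPH is lower in all 3, and SHMT2 over SHMT1 overlaps.

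Around these enzymes, 8 lists of related genes were counted in the same fit, beside a median log2 fold change of 0.00 and 37.8% called in either direction over all tested genes. Purine synthesis, which takes up one-carbon units from folate, was the list with most calls in a single direction: 9 of 12 tested genes were lower and 0 higher, with a median log2 fold change of -0.31. ADSS1, an adenylosuccinate synthase, had 26.0, 21.6 and 24.1 CPM in si-CHAF1A cells, against 40.2, 39.5 and 34.2 CPM in si-Ctrl cells, and was 1.59-fold lower (log2 fold change -0.67 with an SE of 0.10 and an edgeR adjusted p = 5.69e-05). Its more abundant paralogue ADSS2, chosen after its values were seen, leaned the other way and did not pass (log2 fold change 0.18, edgeR adjusted p = 0.0587). ADSS2 was at 133 ± 3.33 CPM in si-CHAF1A and 118 ± 9.02 CPM in si-Ctrl cells, with no overlap between the groups. PAICS, which joins carbon dioxide and aspartate to the growing ring, was 1.26-fold lower, at 366 ± 10.5 CPM in si-CHAF1A and 461 ± 14.3 CPM in si-Ctrl cells. PRPS1, which makes the ribose donor, fell by 0.32 on the log2 scale, and ADSL, the adenylosuccinate lyase, by 0.57. IMPDH1, of guanine nucleotide synthesis, did not pass (log2 fold change -0.11, edgeR adjusted p = 0.327). GART and ATIC are the enzymes of this list that use formyl-folate directly, and they were chosen after their values were seen. ATIC was lower (log2 fold change -0.27, edgeR adjusted p = 0.00326), while GART was at -0.09 and did not pass (edgeR adjusted p = 0.306).

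Among other folate enzymes and transporters, 13 genes were tested, of which 3 rose and 1 fell, and the median was -0.15. MTFMT, which formylates the mitochondrial initiator tRNA with a folate-borne formyl group, had 6.96, 5.40 and 6.62 CPM in si-CHAF1A cells, against 12.9, 11.9 and 12.6 CPM in si-Ctrl cells. It was 1.97-fold lower (log2 fold change -0.98 with an SE of 0.13 and an edgeR adjusted p = 2.83e-05), with no overlap between the groups. The folate receptor FOLR1 and the proton-coupled folate transporter SLC46A1 were higher by 0.63 and 0.40 on the log2 scale. ALDH1L1, the cytosolic counterpart of ALDH1L2, was also called higher, from low counts, 11, 13 and 19 in si-CHAF1A libraries against 1, 4 and 2 in si-Ctrl libraries. Its fitted log2 fold change was 2.58 in edgeR and 1.97 in limma-trend. ALDH1L1 passed the filter only through the si-CHAF1A libraries, the group where it was high. Without a filter it was still called higher (edgeR adjusted p = 0.000652). At a minimum count of 50 it was not tested, and the list had 2 higher genes. The reduced folate carrier SLC19A1 did not pass (log2 fold change 0.07, edgeR adjusted p = 0.511). Without si-Ctrl 2 the number of lower genes in this list was 5.

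In the methionine cycle and transsulfuration, 9 genes were tested, of which 1 rose and 1 fell, and the median was -0.04. MTR, the methionine synthase that takes a methyl group from folate, had 94.8, 103 and 101 CPM in si-CHAF1A cells, against 148, 146 and 148 CPM in si-Ctrl cells. It was 1.48-fold lower with no overlap (log2 fold change -0.57 with an SE of 0.06 and an edgeR adjusted p = 5.25e-06). AHCYL2, related to the enzyme that cleaves S-adenosylhomocysteine, was higher by 0.32 on the log2 scale. AHCYL1 (0.12), CBS, which condenses serine with homocysteine (-0.32), and MAT2A, which makes S-adenosylmethionine (-0.03), did not pass. AHCYL1 passed without si-Ctrl 2 (log2 fold change 0.12, edgeR adjusted p = 0.0253) and at library totals only (0.17, edgeR adjusted p = 0.0375), and CBS was at -0.11 without si-Ctrl 1. For glycine cleavage and sarcosine, 6 genes were tested, of which 2 rose and 0 fell, and the median was 0.28. These were GLDC, the glycine decarboxylase (log2 fold change 0.25, edgeR adjusted p = 0.0469), and PIPOX, which oxidises sarcosine and pipecolate (1.13, edgeR adjusted p = 0.047). Both calls lay at the threshold, and DESeq2 called neither. PIPOX stood at 1.91 without si-Ctrl 3 (edgeR adjusted p = 0.0038). With 22, 28 and 28 counts in si-CHAF1A and 4, 10 and 22 in si-Ctrl libraries, it passed the filter through the si-CHAF1A group. Without any 1 library other than si-Ctrl 3 the number of higher genes in this list was 0, with 1 lower without si-Ctrl 2. GNMT, SARDH and DLD stood at 0.69, 0.32 and 0.03 and did not pass.

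Among serine and glycine transporters, 9 genes were tested, of which 1 rose and 2 fell, and the median was -0.10. The neutral amino acid transporter SLC38A1 had 224, 243 and 243 CPM in si-CHAF1A cells, against 566, 527 and 598 CPM in si-Ctrl cells. It was 2.38-fold lower (log2 fold change -1.25 with an SE of 0.07 and an edgeR adjusted p = 1.25e-09). Its paralogue SLC38A2 had 631, 632 and 644 CPM in si-CHAF1A cells, against 454, 356 and 458 CPM in si-Ctrl cells, and was 1.503-fold higher (log2 fold change 0.59 with an SE of 0.08 and an edgeR adjusted p = 4.23e-05). SFXN2, a mitochondrial sideroflexin, was lower by a fitted log2 fold change of -0.40 (edgeR adjusted p = 0.0422), a call lost under DESeq2. SLC1A4 and SLC1A5, carriers of neutral amino acids, stood at -0.22 and -0.08 and did not pass, though SLC1A4 was lower without si-Ctrl 2 (-0.28, edgeR adjusted p = 0.00268). Without si-Ctrl 2 the list had 3 higher and 4 lower genes, and 1 lower without si-Ctrl 1, si-CHAF1A 1 or si-CHAF1A 3.

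Of 8 genes that use serine, 1 rose and 3 fell, and the median was 0.02. Of the subunits of serine palmitoyltransferase, which starts sphingolipid synthesis, SPTLC1 was lower, SPTLC2 was higher and SPTLC3 did not pass. SPTLC1 was at 72.8 ± 3.56 CPM in si-CHAF1A and 119.8 ± 9.79 CPM in si-Ctrl cells (log2 fold change -0.72 with an SE of 0.08 and an edgeR adjusted p = 2.48e-06), and SPTLC2 was at 144 ± 5.99 CPM in si-CHAF1A and 106 ± 1.94 CPM in si-Ctrl cells (log2 fold change 0.45 with an SE of 0.06 and an edgeR adjusted p = 5.47e-05). SPTLC3, chosen after its values were seen, had overlapping groups (log2 fold change 0.05, edgeR adjusted p = 0.795). On the log2 scale the phosphatidylserine synthases PTDSS1 and PTDSS2 fell by 0.34 and 0.46, with overlapping groups for PTDSS2. The PTDSS2 call was lost without si-Ctrl 1 (edgeR adjusted p = 0.0626), without si-CHAF1A 2 (0.134) and without si-CHAF1A 3 (0.0804). The serine dehydratase relative SDSL stood at 0.02 and did not pass.

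**Figure D5:**
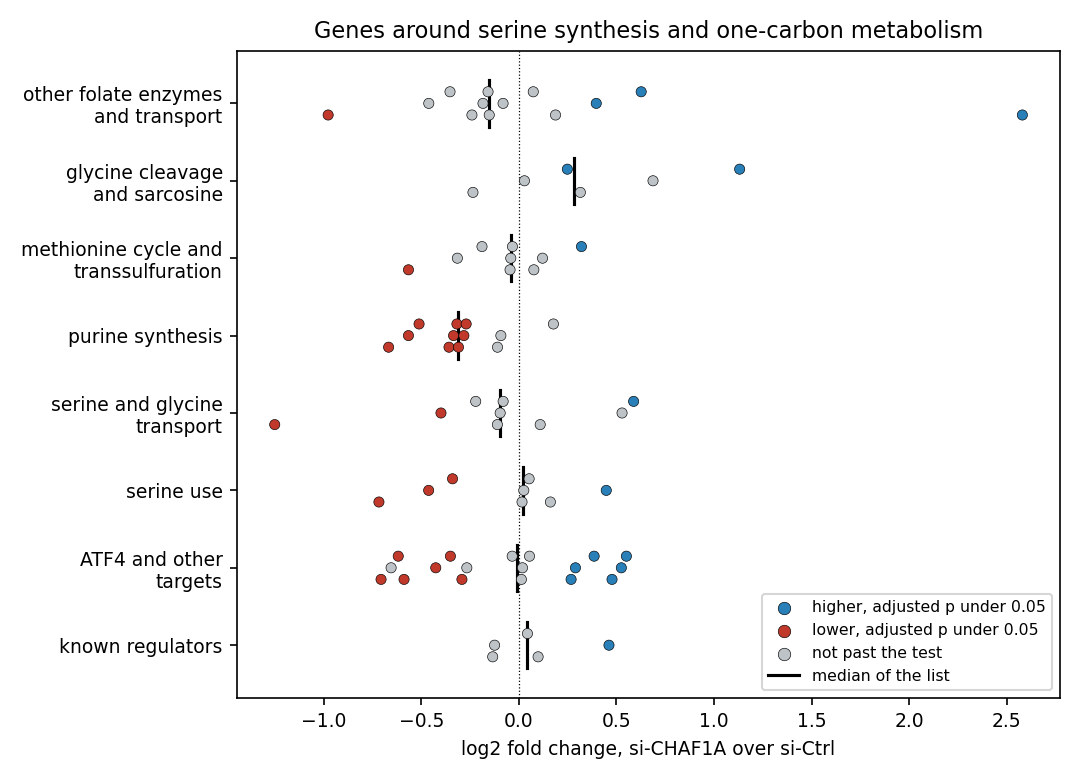
Log2 fold change of si-CHAF1A over si-Ctrl (horizontal axis) of each tested gene in 8 lists around the enzymes, coloured by the call, with a line at the list's median. In purine synthesis 9 of 12 genes lie on the lower side as calls, while ATF4 and other targets hold 6 higher and 6 lower calls.

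ATF4 and its other targets split evenly, with 6 higher and 6 lower of 18 tested genes and a median of -0.01. On the log2 scale, the amino acid carriers SLC7A5 and SLC7A1 fell by 0.71 and 0.43. The pseudokinase TRIB3 and the transcription factor CEBPB were higher by 0.55 and 0.48. ATF4 itself had 160, 155 and 165 CPM in si-CHAF1A cells, against 154, 171 and 166 CPM in si-Ctrl cells, with overlapping groups (log2 fold change -0.03, 95% interval -0.17 to 0.10, edgeR adjusted p = 0.716). ASNS, the asparagine synthetase, was lower at 2.48 ± 0.341 CPM in si-CHAF1A and 3.795 ± 0.57 CPM in si-Ctrl cells (edgeR adjusted p = 0.03). ATF4 and ASNS were chosen after their values were seen, and DDIT3 stood at 0.01 and did not pass. Of the known regulators of these enzymes, MYC (log2 fold change 0.04), NFE2L2 (-0.12), the demethylase KDM4C (-0.13) and TP73 (0.10) did not pass, and without si-Ctrl 2 NFE2L2 was lower (log2 fold change -0.21, edgeR adjusted p = 9.11e-05).

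The genes whose centred log2 CPM over the 6 libraries lay nearest to PSAT1, among 11235 compared, were LRP8, SPRYD7 and PDLIM5, at root mean square distances of 0.04, 0.04 and 0.06 on the log2 scale. LRP8 stood at 46.0 ± 1.59 CPM in si-CHAF1A and 91.1 ± 4.77 CPM in si-Ctrl cells (SD, n = 3 each). Nearest to MTHFD1 were DIP2A, WDR77 and FDPS, at 0.02 each. Since the distance is dominated by the difference between the groups, it names genes of like size of change.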

How the data were processed

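RNA was sequenced from 6 RBE cultures with 150 bp reads. The authors deposited whole-number counts per Ensembl gene with no normalisation. Per the submitters' processing notes, fastp 0.20.1, HISAT2 2.1.0, SAMtools 1.9, featureCounts 2.0.1, StringTie 2.1.4 and hg38 were used. For the annotation release, strand setting and multi-mapped reads, the sources used here give nothing. Columns named NC and si were read as si-Ctrl and si-CHAF1A with the number of the title.

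Of 63186 rows, 62665 could be given a symbol, 58173 had a position in GENCODE 29 (GRCh38, the same assembly as hg38), and 0 named no gene. edgeR's filterByExpr (minimum count 10, minimum total 15) left 15911 genes, tested in edgeR 4.0.16 (run in R 4.3.3) with its robust quasi-likelihood method, TMM factors and no covariate. SE is the log2 fold change divided by the square root of F. The fit was tested on simulated data. Alternatives were DESeq2 1.42.0, limma-trend 3.58.1, other scalings and filters, each library left out, and the replicate number as a block.

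The enzymes and lists were chosen with earlier results of these data known. Named genes are CHAF1A, the 9 enzymes and their listed pseudogenes, up to 4 genes with the smallest p and 1 with the largest p in each list, and the 3 nearest genes to the 2 members with the smallest p. One gene that this rule names is not reported here. Other genes carry a remark that they were picked with values in view. The design text calls the samples biological replicates without further detail, so p-values rest on the spread among these 6 samples, which may be technical. Replicates differed beyond sampling noise in every pair (chi-square per degree of freedom 2.30 to 13.7).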

Additional observations from a re-analysis of the deposited data

How the results depend on the processing

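Across 13 alternatives, PSAT1 stayed lower (log2 fold change -1.06 to -0.95, adjusted p at most 1.74e-05) and MTHFD1 stayed lower (-0.36 to -0.29, adjusted p at most 0.00964). The other 5 tested enzymes kept their direction and did not pass in any of them, and the members counted were 2 lower and 0 higher throughout. Over all genes, 2346 to 3519 were higher and 2358 to 3709 lower when 1 library was left out. Same-numbered libraries of the 2 groups did not deviate together (correlations across genes -0.09, -0.06 and 0.00). This cannot show whether the cultures were paired by number, which the labels do not state. The replicate block gave 2675 genes higher and 2723 lower, and in the glycine list 1 higher gene in place of 2.

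Lists with few calls moved. Glycine cleavage had 1 higher gene without a filter and at a minimum count of 50, and 0 with DESeq2. At library totals only, the higher genes were 2 in the methionine cycle, 1 in purine synthesis and 2 among transporters, with 1 transporter lower. At a minimum count of 50 they were 1 in purine synthesis and 2 among transporters, with 1 transporter lower. limma-trend gave 2 transporters higher, DESeq2 gave 1 lower, and no filter gave 2 higher regulators in place of 1 in the main fit. The causes were not tested. With 1 library left out, the ranges were 1 to 5 lower for other folate genes, 0 to 2 higher and 0 to 1 lower for glycine cleavage, 1 to 2 higher for the methionine cycle, 1 to 3 higher and 1 to 4 lower for transporters, and 0 to 1 lower for regulators. The MTHFD1L over MTHFD1 difference ran from 0.40 to 0.47 and the SHMT2 over SHMT1 difference from -0.11 to 0.01. Without si-CHAF1A 3 and without si-Ctrl 2 that difference turned to 0.0131 and 0.0041. Values near 0 that did not pass also changed sign. MAT2A was at 0.0153 at library totals only. With 1 library left out, the log2 fold changes ran from -0.0268 to 0.0520 for DLD, from -0.0965 to 0.0173 for MAT2A, from -0.139 to 0.0111 for SLC1A5, from -0.0805 to 0.0995 for SDSL, from -0.113 to 0.138 for DDIT3 and from -0.0898 to 0.298 for TP73. ALDH1L2 and MTHFD2 did not pass the filter on low counts in the main fit. Without a filter both were fitted, and neither was called.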
